A study of Mus musculus with 4 samples.

Results

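The genes described here are 10 lysosomal protease genes, Ctsa, Ctsb, Ctsc, Ctsd, Ctsh, Ctsk, Ctsl, Ctss, Ctsz and Lgmn, of the 18605 genes listed for every library. They were taken by name, as cathepsins and legumain, and each symbol was found in all 4 libraries. Cells of subcutaneous tumors of LLC, the mouse line of Lewis lung carcinoma, grown in C57/BL6N mice of 6 to 8 weeks were read by single-cell RNA sequencing. Radiotherapy (RT) was represented by libraries RT1 to RT3, each of 1 tumor that received 24 Gy in 3 fractions of 8 Gy on days 7 to 9 after injection, when tumors had reached an average of 100 mm3. The radiation naive control group (NT) was mock treated and had 1 library, made from 3 tumors pooled. All tumors carried the same line and were taken 72 h after radiation or mock treatment.

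Cathepsins are proteases of the lysosome, the acidic compartment in which macrophages break down what they engulf. Most are cysteine proteases, whereas cathepsin D is an aspartic protease and cathepsin A a serine carboxypeptidase. Legumain cuts after asparagine and turns several cathepsin precursors into mature chains. Besides bulk degradation, these enzymes trim the invariant chain of MHC class II, activate granule proteases and, when secreted, cut collagen and other matrix proteins.

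Because NT is 1 library, no test between NT and RT was possible, and every ratio below shares that library. Each value is a sum of unique molecular identifiers (UMIs, tags that count each captured RNA molecule once) over the cells of a class in 1 library, scaled to 1000000 UMIs of that class (CPM). The kit tags the 3′ end of a molecule once, so CPM were not divided by gene length. Intervals are exact 95% Poisson intervals and cover counting error only. A gene met the fold rule when its log2 ratio to NT was at least 0.5 in the same direction in RT1, RT2 and RT3. RT values are given as mean ± SD of 3 libraries.

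NT had 10141 barcodes and 69667759 UMIs as deposited. RT1 had 15346 barcodes and 78585759 UMIs, RT2 14994 and 108699844, and RT3 15324 and 85660188. Of these, 55058 of 55805 barcodes were kept. RT2 stood apart before any result, since its table gave 18605 genes by symbol where the others gave 32285, and none of its barcodes exceeded 11.95% mitochondrial UMIs. Any pair of libraries shared between 182 and 277 barcode sequences. Over all kept cells Ctsb had 607662 UMIs, Ctsl 357382 and Ctss 305431. Ctsk was the sparsest, at 3702 UMIs.

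On the mouse assembly GRCm38 the 10 protein-coding genes lie on 7 chromosomes. Ctsk (chr3:95499256-95509362) and Ctss (chr3:95526786-95556403) are neighbors on the plus strand, 17423 bases apart. Ctsa (chr2:164832873-164841032, plus) and Ctsz (chr2:174427493-174439039, minus) share chromosome 2, and Ctsc (chr7:88278085-88310888, plus) and Ctsd (chr7:142375911-142388038, minus) share chromosome 7. The others are Ctsb (chr14:63122462-63145923, plus), Ctsl (chr13:64359337-64370890, minus), Ctsh (chr9:90054152-90076089, plus) and Lgmn (chr12:102394084-102439813, minus).

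RefSeq promoter windows on GRCm38.p6, from 250 bases before to 50 after a start site, were at hand for Ctsa, Ctsc, Ctsd, Ctsk, Ctsl, Ctss, Ctsz and Lgmn, and were not used here for Ctsb and Ctsh. They were searched on both strands for TCACGTGA, the core of the CLEAR element that the lysosomal regulators TFEB and TFE3 bind, and for GAGGAAGT, a site of the myeloid factor PU.1. The 30-base stretches with a match are shown because Ctsc and Ctss were largely myeloid genes below, whereas Ctsa and Ctsd were divided between macrophages and tumor cells, with the matched letters in capitals and the gene's own strand written 5′ to 3′.
Ctsa: tgTCACGTGAtgcagatgcTCACGTGAcca
Ctsd: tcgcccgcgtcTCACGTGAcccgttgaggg
Ctsc: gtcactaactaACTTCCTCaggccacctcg
Ctss: aatgaaagttcACTTCCTCattgtggatgc
The stretch of Ctsa (chr2:164833758-164833787) runs from 15 bases before to 14 after the more downstream of its RefSeq start sites, and its upstream window (chr2:164832622-164832921) held no match. That of Ctsd (chr7:142387908-142387937, minus strand) lies 81 to 110 bases before the start site of that gene. The CLEAR core was found in 320 of all 32851 windows (0.974%), and 2 of the 8 genes with a window held it. Ctsz and Lgmn, also divided between macrophages and tumor cells below, did not hold it. The inner letters CACGTG, which every match of the core also contains, occurred in 7.15% of windows. They were also in the window of Ctsl and in 1 of the 2 windows of Lgmn. The PU.1 letters, read on the opposite strand in Ctsc (chr7:88277923-88277952) and Ctss (chr3:95526773-95526802), occurred in 3.20% of windows. These are matches of letters, and no binding was measured.

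Clusters were named from marker genes, and the 10 proteases and the other listed lysosome genes took no part in the clustering. Macrophages (C1qa, C1qb, C1qc, Mrc1, Apoe) numbered 548 in NT, 2053 in RT1, 2027 in RT2 and 1215 in RT3. Monocytes (Ly6c2, Plac8, Chil3, Ccr2) numbered 545, 1875, 2055 and 1843. Tumor cells (Rhox5, Krt8, Krt18) numbered 6311, 7195, 6682 and 7943. Of the markers that gave these names, C1qb stood at 1889 to 4918 CPM in macrophages and 0.93 to 12.9 in tumor cells. Rhox5 stood at 1084 to 1329 CPM in tumor cells and 39.3 to 81.8 in macrophages. Being part of the naming, these markers are no separate check of it. Lymphocytes, dendritic cells, neutrophils, fibroblasts and endothelial cells were smaller classes, and NT held only 23 neutrophils, 18 fibroblasts and 34 endothelial cells. Between 19.4% and 21.5% of the cells of each library lay in clusters without a name.

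The proteases differed in the cell types that held their UMIs. Ctss, Ctsh and Ctsc were largely myeloid genes. Macrophages and monocytes together held most of their UMIs in every library, and tumor cells held 0.826% to 0.993% of Ctss and 0.897% to 1.09% of Ctsc. Ctsl lay on the other side, since tumor cells held 80.7% of its UMIs in NT and 57.9% to 69.8% in RT. Ctsb, Lgmn, Ctsd, Ctsa and Ctsz were divided between both. For Ctsb, macrophages held 23.1% of UMIs in NT and 49.0%, 51.2% and 32.3% in RT1 to RT3. Fibroblasts were the main source of Ctsk, the collagen-cutting cathepsin of osteoclasts, in NT (43.3%), RT2 (49.0%) and RT3 (78.1%), and macrophages in RT1 (59.4%). Over the 10 genes together, macrophages held 26.1% of the UMIs in NT and 48.3%, 52.9% and 33.2% in RT1 to RT3, and no RT library was below NT. This share holds both the number of macrophages and the level per cell.

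**Figure D1:**
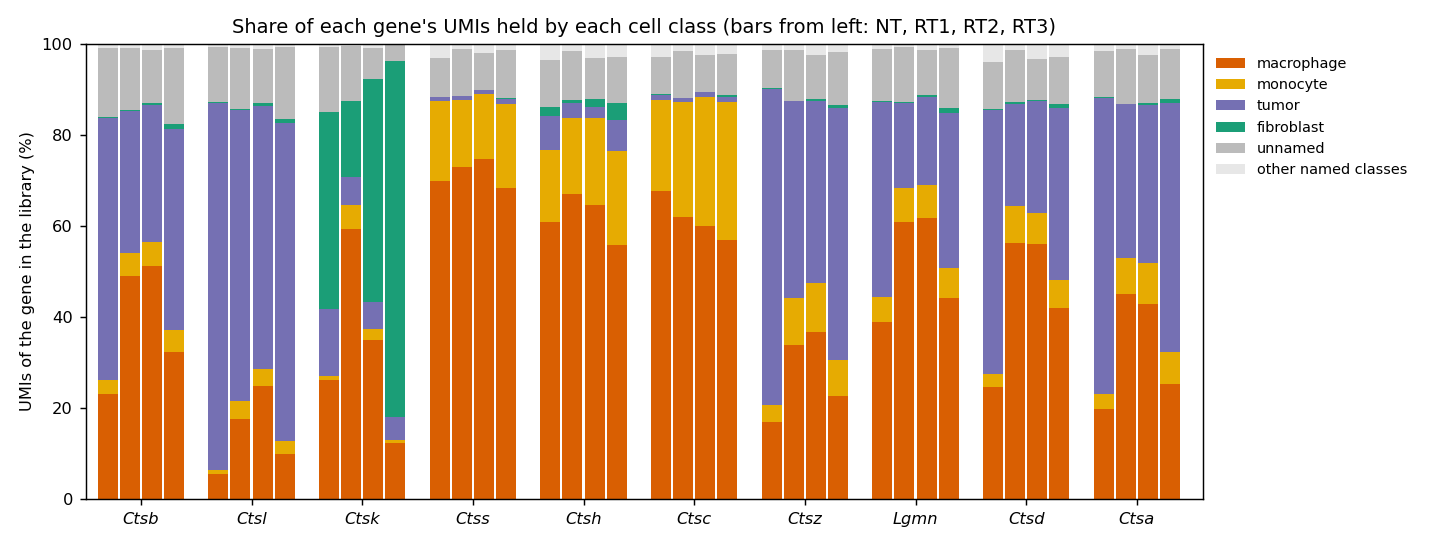
Percent of each gene's UMIs (y axis) that lay in each cell class, with 4 bars per gene for NT, RT1, RT2 and RT3 from the left. Macrophages and monocytes filled most of the Ctss, Ctsh and Ctsc bars, tumor cells most of the Ctsl bars, and fibroblasts 78.1% of the Ctsk bar of RT3.

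By level per UMI of a class, rather than by where the UMIs lay, macrophages had the highest mean over the 4 libraries for 9 of the 10 genes, and fibroblasts for Ctsk at 978 ± 628 CPM (SD, n = 4 libraries) against 40.3 ± 25.9 in macrophages. For Ctsb the macrophage mean was 8973 ± 2126 CPM, followed by monocytes at 2269 ± 268 and fibroblasts at 1639 ± 511, whose ranges overlapped. Within each library Ctsb was higher in monocytes than in fibroblasts, though by little in RT3 (2308 against 2231 CPM). Neutrophils (1070 ± 373), endothelial cells (945 ± 125) and tumor cells (903 ± 193) came next and overlapped with each other. For Ctsl the order was macrophages (1916 ± 469), tumor cells (991 ± 259), fibroblasts (900 ± 347) and monocytes (853 ± 348). The ranges of all 4 overlapped over NT and RT together, but within each library macrophages had the highest Ctsl of these 4 classes. Ctss was at 7720 ± 1484 CPM in macrophages, 3670 ± 556 in monocytes, 1961 ± 334 in dendritic cells and 11.7 ± 7.35 in tumor cells. Ctsc was close in macrophages (1899 ± 337) and monocytes (1675 ± 255), whose ranges overlapped, and so was Ctsh in dendritic cells (192 ± 41.5) and monocytes (188 ± 40.4). Legumain was at 1663 ± 257 CPM in macrophages and 459 ± 36.6 in monocytes. These classes are clusters of the same cells, so the order is a description without a test.

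Macrophages carried more protease RNA in every RT library than in NT, with cathepsin B and cathepsin L furthest ahead among the abundant members and cathepsin C moving the other way. The 10 genes made up 1.74% of all macrophage UMIs in NT and 2.70%, 2.33% and 2.49% in RT1 to RT3. Among all genes of the class, Ctsb ranked 19th by level in NT and 4th, 7th and 5th in RT, and Ctss 21st in NT and 7th, 13th and 7th in RT. By the fold rule 3 of 10 genes, Ctsb, Ctsl and Ctsk, were higher and none was lower, where 9.14% of the 7024 genes tested in macrophages were higher and 6.69% lower. Levels were above NT in every RT library for 8 of 10 genes, against 33.5% of all tested genes. The median of the mean log2 ratios was 0.49 over the 10 genes and 0.0004 over all genes tested. Median depth was 3558 UMIs per macrophage in NT and 3266, 5239 and 2817 in RT1 to RT3, and the median mitochondrial share was 5.92% against 5.36%, 4.70% and 4.99%. The 9 macrophage markers moved with the proteases. They summed to 10404 CPM in NT and 16049, 17828 and 14445 in RT, 6 of 9 were above NT in every RT library, none was at 0, and C1qb, the most abundant, was at 1889 CPM in NT and 3846, 4918 and 3601 in RT. Their part in the protease ratios was not tested.

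Among the cysteine endopeptidases, Ctsb encodes an enzyme that also trims peptides from their carboxyl end. Its level in macrophages was 5905 CPM in NT (interval 5807 to 6003), 10774 in RT1, 9384 in RT2 and 9830 in RT3. The RT libraries lay close together and far above NT, at a mean log2 ratio of 0.76 ± 0.10 or 1.69-fold. Ctsl encodes a strong endopeptidase of lysosomes that can be secreted. It stood at 1258 CPM in NT (1213 to 1304), 2338 in RT1, 1932 in RT2 and 2138 in RT3, a mean log2 ratio of 0.76 ± 0.14, and again no RT value came near NT. Ctsk was low, with 37 UMIs in the NT macrophages. Its level was 15.6 CPM in NT (upper bound 21.5), 73.9 in RT1, 25.1 in RT2 and 46.5 in RT3, which gave the largest mean log2 ratio of the 10 genes (1.48 ± 0.78) and also the widest spread, 0.67 in RT2 against 2.22 in RT1.

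Ctss encodes a cathepsin that stays active at neutral pH and cuts the last piece of the invariant chain. It was at 5747 CPM in NT, 9206 in RT1, 7523 in RT2 and 8404 in RT3, above the NT interval in each, but RT2 (log2 ratio 0.39) missed the fold rule that RT1 (0.68) and RT3 (0.55) met. Without RT2 it would be the fourth gene called. Lgmn was at 1311 CPM in NT, 1759 in RT1, 1662 in RT2 and 1920 in RT3 (mean log2 ratio 0.44 ± 0.10), all above NT but with RT3 alone past the threshold. Ctsh, an aminopeptidase, was at 242 CPM in NT and 338, 360 and 281 in RT1 to RT3 (0.42 ± 0.19).

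Ctsc, the dipeptidyl peptidase that activates granzymes and neutrophil serine proteases, was the member that went the other way. Its level was 2341 CPM in NT (2280 to 2404), 1981 in RT1, 1659 in RT2 and 1616 in RT3. All RT values lay below the NT interval, at a mean log2 ratio of -0.42 ± 0.16, although RT1 (-0.24) and RT2 (-0.50, just short of the threshold) kept it from being called lower. Ctsz, a carboxypeptidase also named cathepsin X, was on both sides of NT, with 277 CPM in NT and 228, 330 and 309 in RT1 to RT3. The aspartic protease gene Ctsd was at 148 CPM in NT, 162 in RT1, 266 in RT2 and 242 in RT3 (0.56 ± 0.38), with RT1 inside the NT interval. Ctsa, whose product also protects beta-galactosidase and neuraminidase in the lysosome, was at 105 CPM in NT and 143, 144 and 114 in RT, with RT3 inside the NT interval.

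**Figure D2:**
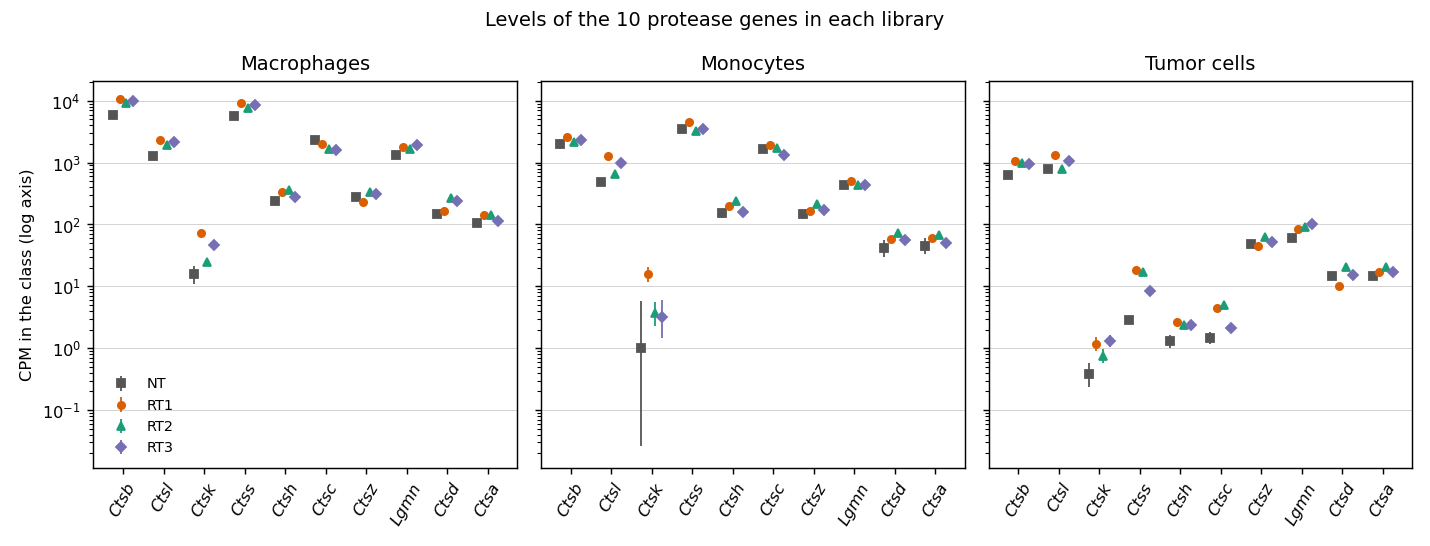
CPM of the 10 genes on a log axis in macrophages, monocytes and tumor cells, 1 point per library with its 95% counting interval. In macrophages the RT points of Ctsb and Ctsl sit above NT and those of Ctsc below, and in tumor cells Ctss lies between 2.89 and 18.5 CPM.

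Tumor RNA was measured in these macrophages through Rhox5, which stood at 3.62% of its tumor cell level in NT and at 4.90%, 4.49% and 6.73% in RT1 to RT3. The 6 tumor markers summed to 270 CPM in NT and 257, 266 and 328 in RT, and none was at 0. Of these 6, 4 were above NT in every RT library and 1 was below. Ccnd1, the most abundant, was at 175 CPM in NT and 113, 128 and 108 in RT. The 7 fibroblast markers summed to 35.5 CPM in NT and 91.0, 81.1 and 122 in RT, with Col3a1 the most abundant and 1 marker at 0 in NT. Of these 7, 6 were above NT in every RT library and 1 was below. Col3a1 also stood at 730 to 1265 CPM in tumor cells. The part of this RNA in the Ctsk ratio was not tested. After a tumor cell profile scaled to Rhox5 was taken away, the same 3 genes met the fold rule. Ctsk no longer met it with classes from each cell's own marker score (1.30) or with an unnamed Mmp12 cluster added to the macrophages (1.16).

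In monocytes, the blood-derived precursors of many tumor macrophages, none of the 9 genes tested met the fold rule in either direction, where 11.9% of 6947 tested genes were higher and 4.43% lower. Ctsl came nearest. It was at 495 CPM in NT (452 to 541), 1281 in RT1, 659 in RT2 and 976 in RT3, above the NT interval throughout, and RT2 (log2 ratio 0.41) alone kept it from being called. Ctsb was at 1972 CPM in NT and 2613, 2185 and 2308 in RT, also above the NT interval, at a mean log2 ratio of 0.26 ± 0.13. The C1q genes in monocytes stood at 24.7% of their macrophage level in NT and 18.0%, 18.5% and 13.0% in RT, and a macrophage profile at those shares would give 1457 CPM of Ctsb in NT and 1942, 1737 and 1276 in RT. For Ctsl it would give 310 CPM in NT and 421, 358 and 277 in RT. The part of macrophage RNA in the monocyte values was not tested. Ctss, at 3507 CPM in NT and 4476, 3200 and 3498 in RT, and Lgmn, at 442 CPM in NT and 514, 443 and 438 in RT, did not separate RT from NT. The same held for Ctsc, at 1692 CPM in NT and 1933, 1752 and 1324 in RT. Ctsk had 1 UMI in the NT monocytes and was not tested. The median of the mean log2 ratios was 0.30 over the 9 genes against 0.08 over all genes tested. The differences between macrophages and monocytes in these ratios were not tested.

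**Figure D3:**
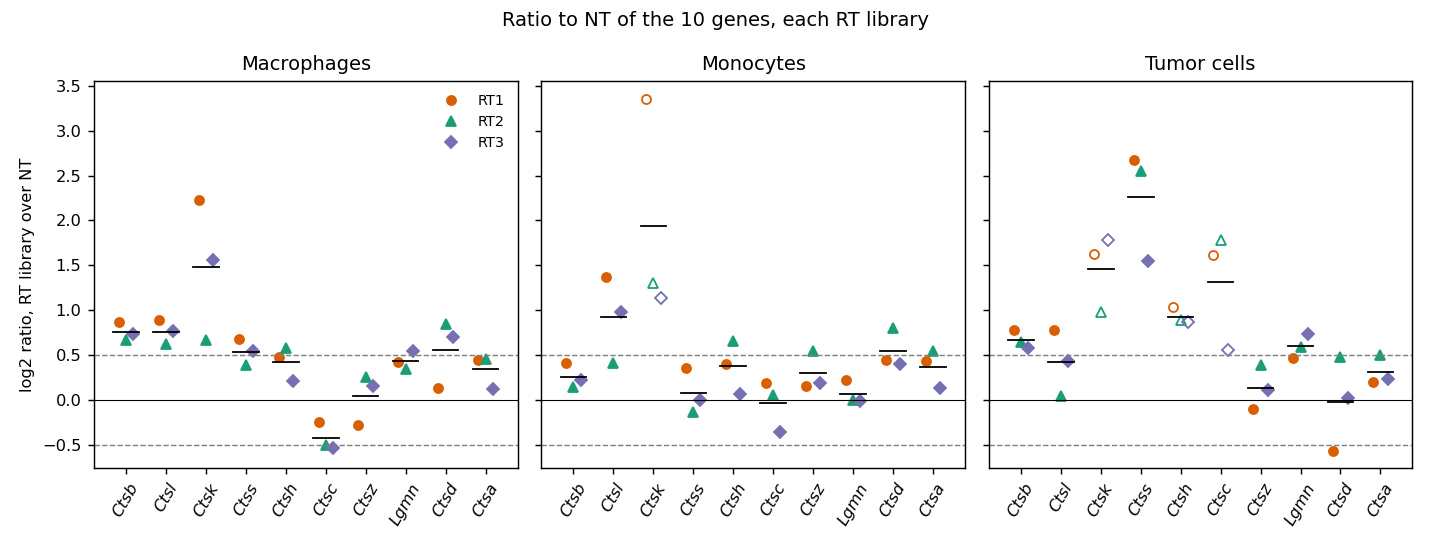
log2 ratio to NT (y axis) of each gene in RT1, RT2 and RT3, in macrophages, monocytes and tumor cells, with a bar at the mean, dashed lines at 0.5 and -0.5 and open symbols for genes too low to be tested. Ctsb lies above 0.5 in all RT libraries in macrophages and tumor cells and below it in monocytes.

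In tumor cells, Ctsb and Ctss met the fold rule, 2 of 7 genes tested, and none was lower, where 4.95% of 7839 tested genes were higher and 1.4% lower. Ctss, at 2.89 CPM in NT, reached the minimum of 10 CPM only through RT1 (18.5) and RT2 (17.0). Its place in this count thus rests on the libraries where it was high. Ctsb stood at 627 CPM in NT (620 to 633), 1074 in RT1, 979 in RT2 and 934 in RT3, a mean log2 ratio of 0.67 ± 0.10 or 1.59-fold, with the RT libraries close to each other. With classes from each cell's own marker score its ratio was 0.55 and it was not called. In the same cells the 7 fibroblast markers summed to 849 CPM in NT and 1571, 1275 and 1264 in RT (4 of 7 above NT in every RT library, Col3a1 the most abundant, none at 0). The 7 monocyte markers summed to 401 CPM in NT and 917, 779 and 609 in RT (6 of 7 above, Fn1 the most abundant at 296 CPM in NT and 716, 563 and 437 in RT, none at 0). Their part in the Ctsb ratio was not tested. Lgmn was at 61.5 CPM in NT and 84.7, 92.7 and 102 in RT1 to RT3 (0.60 ± 0.14), and RT1 (0.46) missed the threshold. Ctsl, the most abundant member in these cells in NT, was at 777 CPM in NT, 1332 in RT1, 803 in RT2 and 1051 in RT3, so that RT2 was close to NT. Ctsz (48.7 CPM in NT and 45.4, 64.0 and 52.5 in RT) and Ctsd (14.9 in NT and 10.1, 20.8 and 15.1 in RT) were on both sides of NT. Ctsa was at 14.7 CPM in NT and 16.8, 20.8 and 17.2 in RT. Ctsc, Ctsh and Ctsk stayed at or below 5.03 CPM in every library and were not tested.

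Ctss in tumor cells is given beside macrophage RNA in the same cells, whose part in the Ctss ratio was not tested. It was at 2.89 CPM in NT, 18.5 in RT1, 17.0 in RT2 and 8.47 in RT3. All 9 macrophage markers were above NT in every RT library in the same cells. Their sum was 8.89 CPM in NT and 39.3, 49.8 and 23.5 in RT, Cd68 was the most abundant and none was at 0. Had all C1qa, C1qb and C1qc in tumor cells come with a macrophage profile, that profile alone would have given 2.91 CPM of Ctss in NT and 18.9, 18.3 and 9.83 in RT1 to RT3. The observed level was 0.99, 0.98, 0.93 and 0.86 times these values, below the profile in every library. With the profile taken away the mean log2 ratio of Ctss was -0.15. Csta3, with 0 UMIs in every library, had the same value (-0.15), so this is not a measured change of Ctss. For Ctsc the factor of observed level over profile was 1.23, 1.10, 1.25 and 1.14. For Ctsb it was between 43.0 and 210, and for Lgmn between 23.0 and 92.6.

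The smaller classes gave wide intervals. In dendritic cells, Ctsb (307 CPM in NT and 492, 603 and 706 in RT) and Ctsz (106 in NT and 156, 172 and 199 in RT) were above NT in every RT library, and so were Ctsh (138 in NT and 216, 232 and 184 in RT) and Ctsl (147 in NT and 156, 217 and 372 in RT). NT had 84 dendritic cells, and of these 4 genes Ctsb alone had counting intervals apart from that of NT in each RT library. In lymphocytes, Lgmn was at 24.1 CPM in NT and 92.1, 57.2 and 60.01 in RT. The C1q genes in lymphocytes were at 0.656% of their macrophage level in NT and 3.41%, 2.68% and 1.18% in RT, and the part of macrophage RNA in the lymphocyte values was not tested. Fibroblasts had 601 CPM of Ctsk in NT, 657 in RT1, 737 in RT2 and 1916 in RT3, with RT3 far above the others, but the NT value rests on 61 UMIs of 18 cells and no call was made.

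Over all kept cells, which mix the makeup of the tumor with the level in each class, all 10 genes were above NT in every RT library, where 27.8% of all tested genes were. Ctsb, Ctsh, Ctsk, Ctss and Lgmn met the fold rule, 5 of 10 genes, and none was lower, where 7.32% of 8106 tested genes were higher and 1.91% lower. Ctsk, at 2.04 CPM in NT, reached the minimum of 10 CPM only through RT1 (13.3) and RT3 (19.0). Ctss was at 281 CPM in NT and 1349, 1179 and 622 in RT1 to RT3. Ctsb was at 876 CPM in NT and 2349, 2148 and 1541 in RT, a mean log2 ratio of 1.18 ± 0.32 against 0.76 in macrophages and 0.67 in tumor cells. Within macrophages Ctsc was below NT in every RT library without meeting the fold rule. Over all cells it was at 118 CPM in NT and 341, 324 and 143 in RT. Without RT3, 8 genes met the fold rule, a count with no share of all tested genes beside it, since 7.32% is for RT1, RT2 and RT3 together. Leaving out a library can only keep or add calls. RT3 had the smallest ratio of the RT libraries for Ctsa, Ctsb, Ctsc, Ctsd, Ctsh, Ctss, Ctsz and Lgmn. Macrophages were 5.49% of kept cells in NT and 13.7%, 13.5% and 8.07% in RT1 to RT3.

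Myeloid cells were clustered again to see where in the class the proteases lay. A Lyve1, Cd209f and Cd163 sub-cluster had the highest Ctsb (11555 CPM, mean of the libraries) and Lgmn (2144 CPM). A sub-cluster led by Cxcl5, Cd36 and Mmp12 had the highest Ctsl (2984 CPM), Ctss (9287 CPM) and Ctsk (83.9 CPM). Ctsc was highest in monocytes with interferon genes (Slfn4, Ifit1bl1, Isg20) at 2306 CPM, though it differed little among sub-clusters and was lowest at 1337 CPM in the Chil3 and Gsr monocytes among the 10 larger macrophage and monocyte sub-clusters. Sub-clusters are named by their leading genes, and the one led by Cxcl3, Areg and Ppbp took its name from macrophage markers while 91.7% of its cells were in the monocyte class.

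**Figure D4:**
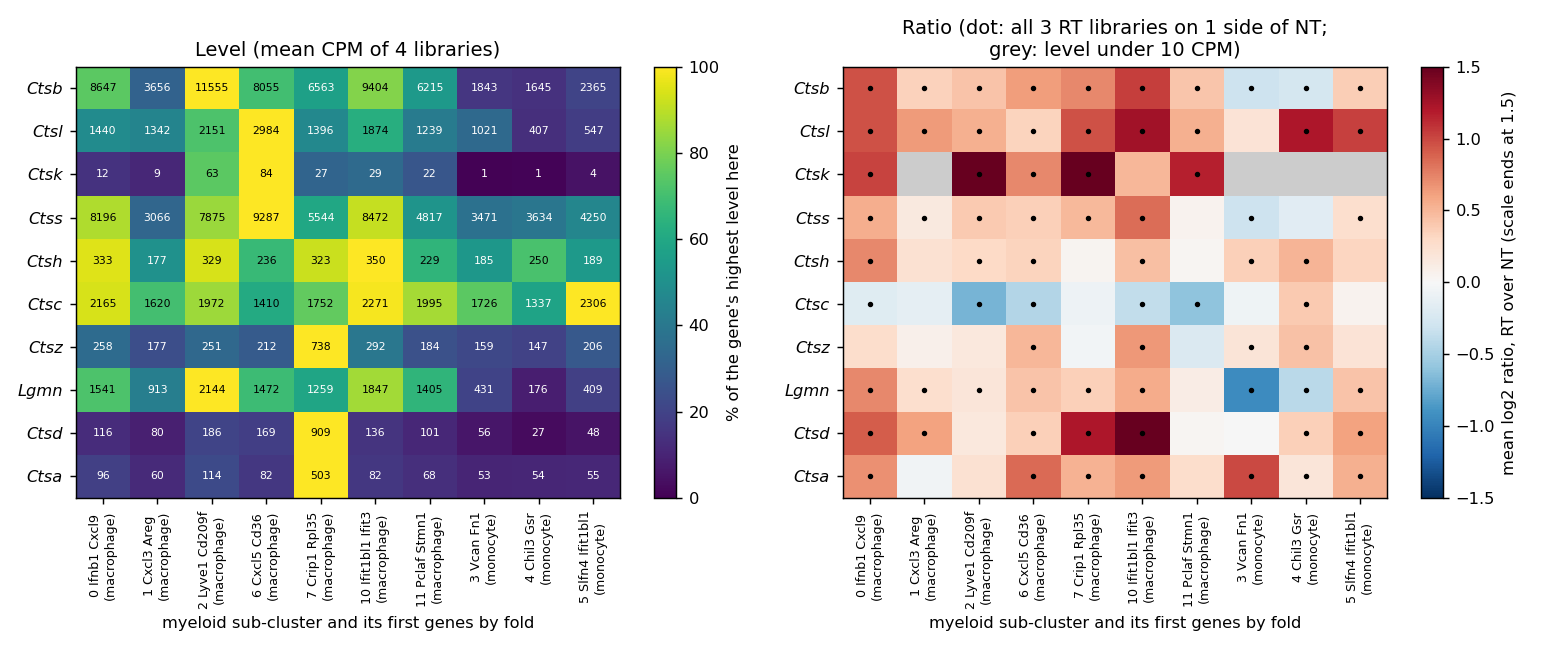
Left, mean CPM of the 4 libraries (numbers) and percent of the gene's highest value (color) in 10 myeloid sub-clusters. Right, mean log2 ratio of RT over NT (color), with a dot where RT1, RT2 and RT3 were on the same side of NT. Ctsb and Lgmn are red in the macrophage columns and blue in the Vcan and Chil3 monocytes.

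Ctsb was above NT in every RT library in 8 of these 10 sub-clusters and below NT in every RT library in the remaining pair, the Vcan and Fn1 monocytes and the Chil3 and Gsr monocytes. In the macrophages led by Ifnb1, Cxcl9 and Vcam1 it was at 5082 CPM in NT with a mean log2 ratio of 0.95, and in those with interferon genes (Ifit1bl1, Ifit3, Cmpk2), with 20 cells in NT, the ratio was 1.03. In the Vcan and Fn1 monocytes it was at 2149 CPM in NT with a ratio of -0.31. Lgmn went the same way, with 0.72 in the Ifnb1 and Cxcl9 macrophages and -0.95 in the Vcan and Fn1 monocytes. The part of macrophage RNA in the values of these monocytes was not tested. Ctsc was below NT in every RT library in 5 sub-clusters and above in 1, and its largest fall was in the Lyve1 and Cd163 macrophages, from 2762 CPM in NT at a mean log2 ratio of -0.70. Ctsl was above NT in every RT library in 9 of 10 sub-clusters. With the NT shares of sub-clusters set in every library, Ctsb, Ctsd and Ctsk met the fold rule in macrophages, while Ctsl (0.65) did not.

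Ctsd, Ctsa and Ctsz were each highest in the same myeloid sub-cluster. In the macrophages led by Crip1, Rpl35, Cd52 and Ftl1, Ctsa was at 503 CPM, Ctsd at 909 and Ctsz at 738. In the other macrophage and monocyte sub-clusters Ctsa did not exceed 114 CPM, Ctsd 186 or Ctsz 292. In the tumor class the same gene trio was high in a sub-cluster led by ribosomal genes (Rpl35, Rps18, Rpl18), with 69.9 CPM of Ctsa, 77.0 of Ctsd and 138 of Ctsz. A smaller, shallow sub-cluster with Lyz2 among its leading genes, which stayed unnamed, had 61.3, 104 and 133. The remaining proteases were not high there, and Ctsb stood at 847 CPM in that tumor sub-cluster against 1392 in the Lum and Ramp2 sub-cluster of the tumor class, where it was highest and which did not meet the naming rule on its own markers. The macrophage and the larger tumor sub-cluster made up a smaller share in RT. The macrophage one was 7.91% of myeloid cells in NT and 2.80%, 4.69% and 4.80% in RT1 to RT3, and the tumor one 12.1% of tumor cells in NT and 3.64%, 6.41% and 7.59% in RT.

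The tumor class was split into 15 sub-clusters, of which 3 met the naming rule again on their own markers and 12 did not, among them 1 led by the myeloid genes Il1b and Lyz2. Ctsb was above NT in every RT library in all 15, with mean log2 ratios between 0.36 and 0.95. Lgmn was above NT throughout in 13 of 15 and Ctsl in 8 of 15.

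Shares of cells with at least 1 UMI were read after thinning each cell to 1000 UMIs. In macrophages, Ctsl was found in 54.8% of NT cells and 80.2%, 74.3% and 75.3% of RT1, RT2 and RT3 cells (81.8%, 94.5%, 95.5% and 91.5% before thinning). In lymphocytes, which should have little, it was found in 7.66% to 15.6%. Between 10 and 52 macrophages per library were too shallow and left out. Lgmn went from 61.7% of NT macrophages to 78.2%, 75.4% and 76.6%. Ctsb was near its ceiling, at 95.2% in NT and at least 98.0% in RT. In tumor cells, Ctsb was found in 44.5% of NT cells and in 60.3%, 59.2% and 57.1% of RT cells, with 24.0% to 31.6% in lymphocytes, and a median depth before thinning of 1364 to 1944 UMIs in lymphocytes and 6047 to 8624 in tumor cells. Between 121 and 345 tumor cells and 105 and 138 lymphocytes per library were left out. Tumor cells held Ctsl in 47.8% of NT cells and 62.5%, 47.3% and 57.1% of RT cells. Ctss was found in 0.339% of NT tumor cells and at most 2.43% of RT tumor cells, below the 11.98% to 16.02% of lymphocytes.

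The genes around the proteases were read in macrophages from lists of the lysosome. Cystatins are natural inhibitors of cysteine proteases, and serpins were listed beside them. Whether the listed serpins act on the 10 enzymes was not tested. Counts stand against the 9.14% of all tested macrophage genes that were higher and the 6.69% that were lower. Of 5 tested, Serpinb6a alone met the fold rule, at 294 CPM in NT and 531, 468 and 574 in RT. Cst3 (cystatin C, 438 CPM in NT and 505, 894 and 561 in RT) and Cstb (cystatin B, 1307 in NT and 1694, 1801 and 1904 in RT) were above NT in every RT library without meeting it. In monocytes Cstb did meet it, at 1088 CPM in NT and 1710, 1573 and 1996 in RT. Csta2, another cystatin, was at 1.02 CPM in the NT monocytes, from 1 UMI, and 24.0, 33.3 and 40.7 in RT. It reached the minimum of 10 CPM only through its RT values. The serpin gene Serpinb9 was lower in monocytes, at 28.7 CPM in NT and 11.6, 13.4 and 11.4 in RT. Other cathepsins were scarce, with 2 of 5 tested in macrophages and none called, and no placental cathepsin gene was analysed here.

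Lysosomal membrane genes were above NT in every RT library for 11 of 11 tested, with a median log2 ratio of 0.72, and 4 were higher by the fold rule, where 9.14% of all tested genes were. Largest were Laptm5 (1.33), the channel gene Mcoln1 (1.11) and the cholesterol transporter gene Npc1 (0.98). Lamp1, the major lysosomal membrane glycoprotein, was at 1388 CPM in NT and 2676, 2388 and 2722 in RT1 to RT3. Of 33 hydrolases and cofactors tested, 8 were higher and 1 lower, with a median of 0.23, where 9.14% of all tested genes were higher and 6.69% lower. Smpd1 (acid sphingomyelinase) had a mean log2 ratio of 1.03 and Aga (aspartylglucosaminidase) of 0.94. Smpd1, at 5.49 CPM in NT, also reached the minimum only through its RT values. Gm2a, the GM2 activator, was lower, at 206 CPM in NT and 70.1, 128 and 87.2 in RT. The proton pump that acidifies the lysosome had 4 of 16 subunit genes higher and none lower, led by Atp6v0d2 (9.29 CPM in NT and 61.2, 30.8 and 95.1 in RT), Atp6v0e (1.44) and Atp6v0a1 (0.86). Atp6v0d2, below 10 CPM in NT, also reached the minimum only through its RT values. Of 7 sorting genes, the mannose 6-phosphate receptor gene Igf2r (1.08) was higher. Of 4 tested transcription factor genes, Tfe3 was higher, at 16.9 CPM in NT and 25.04, 43.4 and 30.0 in RT, Mitf was at 33.4 CPM in NT and 21.9, 25.8 and 32.8 in RT, and Tfeb was too low to be tested.

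MHC class II genes, whose loading needs the invariant chain to be cut by cathepsins, went the opposite way. All 7 tested were lower by the fold rule in macrophages, where 6.69% of all tested genes were, with a median log2 ratio of -2.30. Cd74, the invariant chain itself, was at 1245 CPM in NT and 137, 425 and 277 in RT1 to RT3, so that every RT library was far below NT. H2-Eb1 fell by 2.56, H2-Aa by 2.41 and H2-Ab1 by 2.31 on the log2 scale, and Ctss, which acts on Cd74, was above NT in the same cells. In monocytes 6 of 7 were lower, where 4.43% of all tested genes were, with Cd74 at 1360 CPM in NT and 281, 569 and 246 in RT. A dendritic sub-cluster (Cd209a, Plet1), 31.5% of whose cells were in the monocyte class, was 7.05% of myeloid cells in NT and 3.34%, 4.53% and 4.02% in RT, and its part in the monocyte values was not tested. The proteases that Ctsc activates were too low in macrophages to be tested, with 0 of 7 reaching the minimum.

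**Figure D5:**
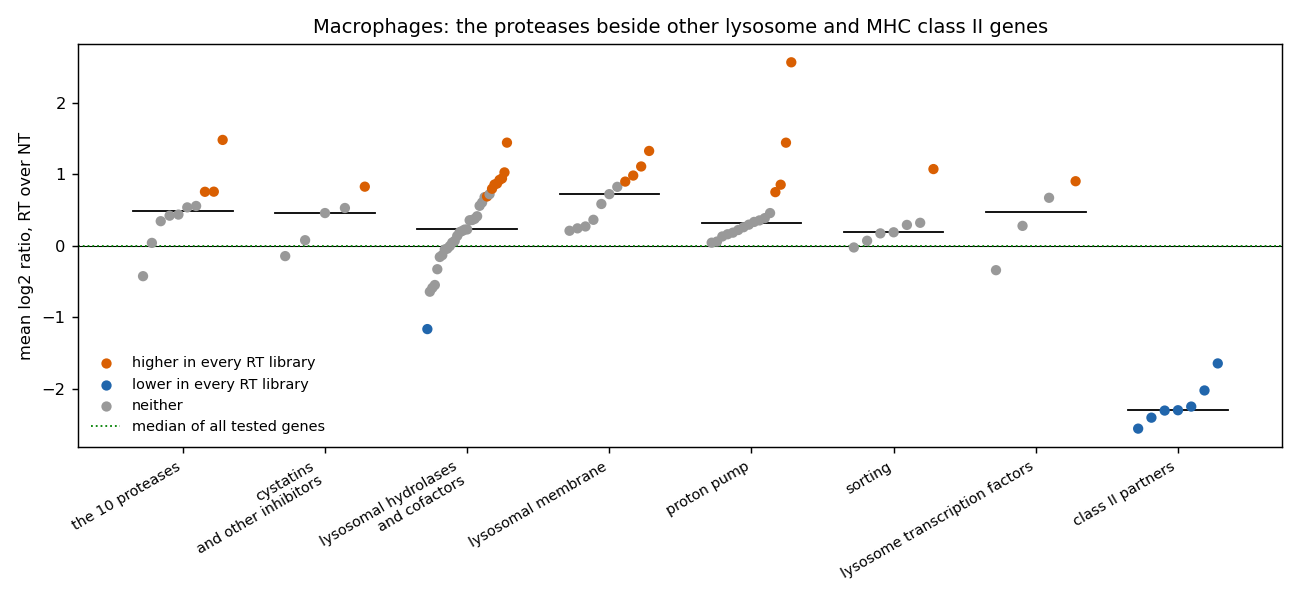
Mean log2 ratio of RT over NT in macrophages (y axis) of every tested gene of 8 lists, 1 point per gene, colored by the fold rule, with a bar at the list's median. All 11 membrane genes lie above 0 and all 7 class II genes below -1.5.

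The same lists were read in the other classes. In monocytes, where 11.9% of all tested genes were higher, 2 of 26 hydrolases (among them Man2b1), 1 of 10 membrane genes (Laptm5), 2 of 15 proton pump genes (Atp6v0e and Atp6v0d1), 1 of 8 sorting genes (Nagpa) and 1 of 4 transcription factor genes (Tfec) were higher, and Lamp1 had a mean log2 ratio of 0.45. In tumor cells, where 4.95% of all tested genes were higher, 2 of 25 hydrolases and 1 of 14 proton pump genes met the fold rule. Psap, the saposin precursor (164 CPM in NT and 414, 578 and 314 in RT) and Atp6v0e (61.5 in NT and 169, 174 and 142 in RT) were higher, and Lamp1 was at 609 CPM in NT and 655, 731 and 721 in RT.

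Across the 32 combinations of named class and library, the gene most like Ctsb was Lgmn (Pearson r = 0.95 of log2(CPM + 10), over 8485 genes compared) and the next Lamp1 (r = 0.94). Ctss was most like the Fc receptor gene Fcgr2b (r = 0.98) and Cd68 (r = 0.97), and Ctsc like Rasgef1b (r = 0.95) and Scimp (r = 0.93). Ctsl followed Ccl2 (r = 0.90), Ctsk followed Igf1 (r = 0.96) and Il11ra1 (r = 0.95), and Ctsh followed Cxcl16 (r = 0.91). Ctsz was most like Cfp (r = 0.90), Ctsa like Snx2 (r = 0.90) and Ctsd like Hgsnat (r = 0.84). These points share libraries and cell classes, so the values describe likeness of pattern only.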

How the data were processed

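Single-cell libraries were prepared by the authors with the SeekOne MM 3′ kit, and the authors deposited whole-number UMI counts per gene and barcode, without normalization. The submitters' processing notes name STAR 2.5.1b, Subread 1.6.4 with featureCounts, Cell Ranger and the build GRCm39, with no order of use; the settings are not given in the sources used here. Positions and promoters were taken from GRCm38 through the Ensembl identifiers and symbols, and strand use in counting is not given, so overlapping genes cannot be told apart.

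Cells passed with 200 or more genes and no more than 20% mitochondrial UMIs (scanpy 1.11.5, numpy 2.4.6, scipy 1.17.1). Counts were scaled to 10000 per cell, and 2000 variable genes, without the listed lysosome genes, were reduced to 30 principal components, integrated over libraries by a rewritten Harmony (theta 2) and clustered with Leiden at resolution 0.8. Each cluster took the class with the highest marker level, as a share of the highest cluster, and stayed unnamed with fewer than 3 markers, more top-10 markers of another class, or shallow cells without an own marker. The naming rule was chosen once clusterings had been seen. Doublets were kept, and scored with Scrublet for an alternative.

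Genes were tested against the fold rule with a mean of at least 10 CPM and 40 UMIs in the class. To each sum 0.5 UMI was added first. A gene low in NT could pass this minimum through its RT values. This was done in classes with at least 50 cells in every library. Calls are reported for macrophages, monocytes, tumor cells and all kept cells, and changes in other classes are values only. The ratio and fold functions were tested on simulated data. The members and lists were chosen with earlier results of these data known. All 10 members are named; of other lists, the 3 largest in each direction among genes that met the fold rule, with Cst3, Cstb, Cd74, Tfeb, Tfe3, Mitf and Lamp1; for likeness the 2 genes of highest correlation; for sub-clusters genes among the 5 of highest fold. Some genes that these rules would name are not reported here.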

Additional observations from a re-analysis of the deposited data

Results flagged for a closer look

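Within myeloid cells some proteases moved in opposite directions in different sub-clusters, with RT1, RT2 and RT3 all on the same side of NT in each, and these differences were not tested. Ctsb was above NT in 8 macrophage and monocyte sub-clusters and below it in the Vcan and Fn1 monocytes (mean log2 ratio -0.31) and the Chil3 and Gsr monocytes (-0.27). Lgmn was above NT in 7 and below in the same monocytes, at -0.95 and -0.40. Ctss was above in 7 and below in the Vcan and Fn1 monocytes at -0.31. In the monocyte class the C1q genes stood at 24.7% of their macrophage level in NT and 18.0%, 18.5% and 13.0% in RT. The part of macrophage RNA in these monocyte values was not tested.

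Ctsc was below NT in macrophages as a class (-0.42) and above it in lymphocytes, where the C1q genes stood at 0.656% of their macrophage level in NT and at least 1.18% in RT. Within the myeloid sub-clusters it was above NT only in the Chil3 and Gsr monocytes. It was below NT at -0.18 in the Ifnb1 and Cxcl9 macrophages, -0.70 in the Lyve1 and Cd163 macrophages, -0.44 in the Cxcl5 and Cd36 macrophages, -0.37 in those with interferon genes and -0.60 in the cycling Pclaf and Stmn1 cells.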

How the results depend on the processing

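No paired analysis was possible because NT is 1 library. The calls of Ctsb in macrophages held under 14 of 14 alternatives (mean log2 ratio 0.67 to 0.80), those of Ctsl under 13 and those of Ctsk under 12, and in tumor cells those of Ctsb and Ctss under 11 of 12 each. In each class 3 of these settings left out 1 RT library, where a gene already called could not lose its call. Those 3 settings are thus no check of these calls. Ctss was tested in tumor cells only because its RT values lifted it over the minimum on level. Its count of settings is thus no measure of stability. With a log2 ratio of at least 1 required, the genes called higher were 0 in place of 3 in macrophages, 1 in place of 2 in tumor cells and 2 in place of 5 over all kept cells. The share of all tested genes at that threshold is not given here, so these counts have no background beside them. Leaving out an RT library gave 3 to 4 genes in macrophages, 0 to 1 in monocytes (Ctsl, without RT2), 2 to 3 in tumor cells (Lgmn, without RT1) and 5 to 8 over all kept cells (8 without RT3). Such counts could only stay or rise when a library was left out, and no share of all tested genes is given for them either. In tumor cells 1 gene was called with classes from each cell's marker score and 1 after RNA of other classes was taken away. The macrophage profile exceeded the observed Ctss in every library, so the ratio of Ctss after that step (-0.15) is not a measured change. The median ratio in tumor cells was 0.42, and 0.47 with median-ratio size factors, 0.35 by marker score, 0.29 minus RNA of other classes and 0.36 to 0.60 without an RT library. In macrophages it was 0.49, 0.39 with the unnamed Mrc1 cluster and 0.58 without the Cd52 and Ftl1 cluster, both chosen after seeing the data. Without the minimum on level, 11.1% of genes in macrophages were higher and 14.3% lower, and 3 of the 10 genes were called higher as before, whereas in monocytes 1 was in place of 0 and in tumor cells 5 in place of 2, where 11.6% and 12.7% of genes were. Where other causes were not named, the cause was not tested. With 1 NT library, the spread between control tumors is unknown, and Ctsk with 37 UMIs and Smpd1 with 13 in NT macrophages are limited by depth.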

Other observations

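Clusters that took no name were left out of the comparisons and hold some of the highest protease levels. A small cluster of 411 cells led by Mmp12, Cxcl3, Inhba and Cd36 had 2684 CPM of Ctsl in NT and 3633, 2212 and 2847 in RT1 to RT3, and 247 CPM of Ctsk in NT and 291, 108 and 104 in RT. The sum of the 10 genes in it was 18344 CPM in NT and 19510, 16372 and 15118 in RT, so RT1 was above NT and the others below, unlike the named macrophages. Ctsb was below NT there in every RT library, at 7945 CPM in NT, from 32 cells, and 6947, 6650 and 6471 in RT.

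A cluster of 3950 cells nearest to tumor cells and led by Dpt, Cp and Fn1 had 953 CPM of Ctsb in NT and 1620, 1375 and 1365 in RT. A shallow cluster of 2536 cells held macrophage genes (Mrc1, F13a1, Csf1r) together with Rhox5 at 649 CPM in NT and 953, 832 and 942 in RT, below the 1084 CPM in NT and 1329, 1223 and 1216 in RT of tumor cells. Its Ctss was at 1717 CPM in NT and 2604, 1837 and 1878 in RT, well under that of macrophages.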
